A study of Mus musculus with 6 samples.

Results

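The genes described here are 10 genes of the NF-kappaB system, chosen by name from 55536 named genes: the 5 subunit genes Nfkb1, Nfkb2, Rel, Rela and Relb, the inhibitor genes Nfkbia and Nfkbie, the genes of the nuclear IkB proteins Nfkbiz and Bcl3, and Tnfaip3. Each symbol matched 1 row of the deposited counts, and all 10 passed the filter on low counts (at least 1 CPM, the usual depth-scaled count, in at least 1 library). RNA came from C57BL/6 mice aged 8 weeks, and 6 libraries were sequenced, 1 per group. The groups were fresh, uncultured marrow (BM), macrophages cultured from it for 7 days in M-CSF (M-BMDM), M-BMDM given interleukin-6 (IL6) for 3 h or for 24 h, macrophages cultured for 7 days in GM-CSF (GM-BMDM), and GM-BMDM given IL6 for 3 h. The labels give neither the IL6 dose nor the number of mice behind a library.

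NF-kappaB proteins are dimeric transcription factors that switch on inflammatory and survival genes. In resting macrophages IkB proteins hold most dimers in the cytoplasm. Signals from Toll-like, IL1 and TNF receptors activate a kinase complex that marks the IkB proteins for destruction and frees the dimers. Many genes of the system are themselves NF-kappaB targets, so that new IkB alpha and A20 end the response. IL6 signals mainly through gp130, JAK kinases and STAT3.

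Promoters of several of the 10 genes hold the DNA motif that NF-kappaB dimers bind. Whether the motif plays a part in the ratios between libraries was not tested. The RefSeq promoter table (GRCm38.p6) held 7 of the 10 genes. The 250 bases before each listed start were searched on both strands for the kappaB consensus motif, which has 10 letters. It was found in 5 of the 7 genes (Nfkb2, Nfkbia, Nfkbie, Rel and Tnfaip3) and before 7 of the 10 starts listed for the 7 genes. Several of these starts belong to Nfkb2 and lie inside that gene. All 250 bases before the first Nfkb2 start are in annotated exons. For comparison, 3.90% of all 32851 starts and 4.46% of all genes had a match. No match was found before the listed starts of Rela and Bcl3, which says only that these letters are absent from those windows. Some matches overlap each other or are read on both strands. In the following sequences, 5′ to 3′ on the gene's strand, capitals mark the match. The stretches before Nfkbia (chr12:55492648-55492897, minus strand) and Nfkbie (chr17:45555450-45555699, plus strand) are whole. For the other genes, whose windows overlap annotated exons, 30 bases around a match are given: Tnfaip3 near its start (chr10:19015411-19015440, minus strand) and further upstream (chr10:19015516-19015545, minus strand), Nfkb2 (chr19:46304688-46304717, plus strand) and Rel (chr11:23771042-23771071, minus strand).
Nfkbia: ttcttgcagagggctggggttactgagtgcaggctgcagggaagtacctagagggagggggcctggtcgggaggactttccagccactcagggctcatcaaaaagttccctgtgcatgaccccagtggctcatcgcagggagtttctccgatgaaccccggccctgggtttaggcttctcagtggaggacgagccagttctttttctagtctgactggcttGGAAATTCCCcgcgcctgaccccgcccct
Nfkbie: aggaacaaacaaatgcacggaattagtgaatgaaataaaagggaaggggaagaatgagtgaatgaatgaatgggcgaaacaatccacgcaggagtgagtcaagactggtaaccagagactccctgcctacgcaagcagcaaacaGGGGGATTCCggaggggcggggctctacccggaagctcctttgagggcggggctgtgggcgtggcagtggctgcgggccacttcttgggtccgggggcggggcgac
Tnfaip3, near: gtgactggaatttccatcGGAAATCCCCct
Tnfaip3, upstream: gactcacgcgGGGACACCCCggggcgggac
Nfkb2: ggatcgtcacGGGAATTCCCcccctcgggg
Rel: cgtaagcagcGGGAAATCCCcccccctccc

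The libraries held between 18511777 and 24134374 counts in named genes, and 14719 genes were analysed. Levels are given as scaled CPM, that is CPM after TMM scaling. With 1 library per group, ratios between libraries describe those libraries and have no replicate check. Their 95% intervals cover counting error only. Counts of reads are not counts of independent molecules, so even this error may be larger than the intervals show. Calls of higher or lower needed a 2-fold ratio, a counting interval that left out 1, and 5 scaled CPM in whichever library was higher. Neutrophil and erythroid markers were nearly lost in the cultures: summed mature neutrophil markers went from 39560 scaled CPM in BM to between 17.2 and 577 in the cultures, and erythroid markers from 82930 to between 8.66 and 28.0. Core macrophage markers summed to 6692 in BM and to between 31140 and 54360 in the cultures. Most of this sum was Lyz2, with 5175 in BM and between 20120 and 44290 in the cultures. The 24 h library stood apart from the other M-CSF libraries in cell cycle transcripts, chosen after their values were seen: Mki67, a proliferation marker, had 126 scaled CPM without IL6, 111 with 3 h of it and 860 with 24 h.

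Most of the family was higher in macrophages grown with M-CSF than in uncultured marrow. In the 24 h library with IL6 all 10 genes were within 2-fold of marrow, while after 3 h of IL6 no gene differed by 2-fold from its untreated culture. Rel and Rela, which encode subunits that activate transcription, varied least over the 6 libraries. The plot of levels by library shows each gene on the same axis.

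**Figure D1:**
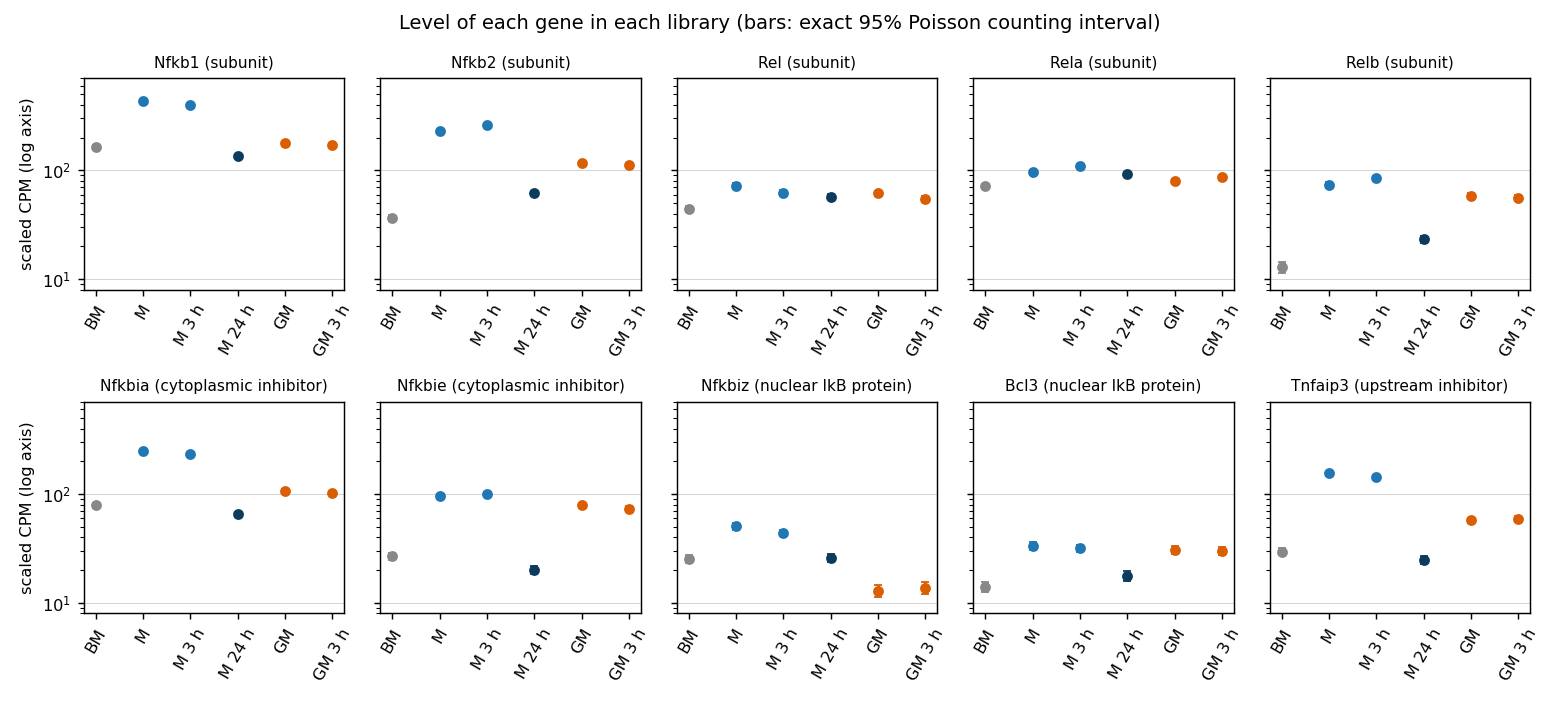
Scaled CPM (log axis) of the 10 genes in the 6 libraries, 1 point per library, with exact 95% Poisson counting intervals, most of which are smaller than the points. M-BMDM without IL6 and after 3 h are the highest libraries for all 10 genes, and the 24 h library lies below both.

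Among the subunits, Nfkb1 and Nfkb2 encode precursors that are cut into p50 and p52, the partners that bind DNA but cannot activate alone. Nfkb1 (chromosome 3, 135584655 to 135691547, GRCm38) had 165 scaled CPM in BM, 429.7 in M-BMDM, 403 with IL6 for 3 h, 135 with IL6 for 24 h, 177 in GM-BMDM and 171 in GM-BMDM after 3 h. Both early M-CSF libraries were thus well above the other 4, which lay close together. Nfkb2 (chromosome 19, 46304320 to 46312385) had 36.3 in BM, 229.8 in M-BMDM, 259.7 after 3 h, 61.6 after 24 h, 116 in GM-BMDM and 112 in GM-BMDM after 3 h. It separated the libraries into more steps, with BM lowest. Exons of 2 genes on the other strand, Psd and AC114539.1, overlap 830 of the 4584 exonic bases of Nfkb2, and whether counting used strand is not given in the sources used here.

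Relb, the partner of p52 in the slower, non-canonical branch, followed Nfkb2. It lies on chromosome 7 (19606217 to 19629438) and had 12.8 scaled CPM in BM, 73.6 in M-BMDM, 84.4 after 3 h, 23.2 after 24 h, 58.4 in GM-BMDM and 56.0 in GM-BMDM after 3 h. Rela, the p65 subunit of the most common dimer (chromosome 19, 5637483 to 5648130), had 71.7 in BM, 95.9 in M-BMDM, 110 after 3 h, 92.3 after 24 h, 80.2 in GM-BMDM and 86.4 in GM-BMDM after 3 h. Rel, the c-Rel subunit known from lymphocytes and dendritic cells (chromosome 11, 23736847 to 23770970), had 44.2, 71.8, 62.3, 57.3, 61.8 and 55.0 in the same order. For both, the highest and the lowest library were less than 2-fold apart, with a span of 0.62 on the log2 scale for Rela and 0.70 for Rel.

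Levels of different genes can be compared only per length. Per kb of the gene length in the deposited table, the 5 subunit genes summed to 105.1 scaled CPM in BM, 298 in M-BMDM, 308 after 3 h, 118 after 24 h, 162 in GM-BMDM and 159 in GM-BMDM after 3 h. The make-up of the sum changed with it. Rela made up 25.1% of the subunit transcripts in BM, 11.8% in M-BMDM, 28.9% after 24 h of IL6 and 18.2% in GM-BMDM. Nfkb2 and Relb, the non-canonical pair, made up 11.6% and 5.55% in BM and 25.9% and 11.2% in M-BMDM. The shares and the order of genes depend on the length used. With annotated exonic lengths, a choice made after the values were seen, Rela made up 43.1% in BM, 21.5% in M-BMDM, 44.0% after 24 h and 29.2% in GM-BMDM, again lower in M-BMDM than in BM or after 24 h. For the order, in M-BMDM Nfkb1 had 143 scaled CPM per kb of the deposited length of 3007 bases, but 35.6 per kb of its 12061 annotated exonic bases, below the 50.1 of Nfkb2.

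**Figure D2:**
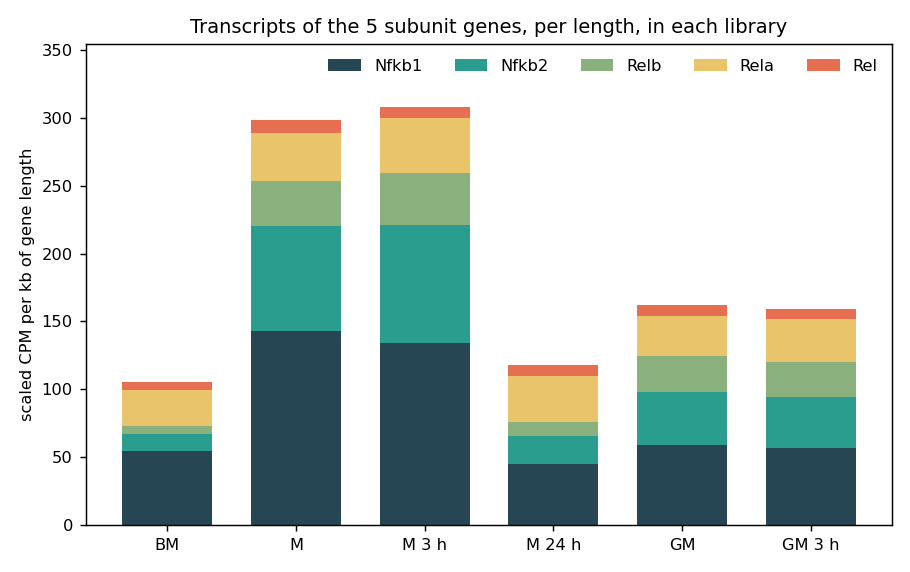
Stacked bars give scaled CPM per kb of deposited gene length for the 5 subunit genes in each of the 6 libraries. The sum is 298 and 308 in M-BMDM without IL6 and after 3 h, against 105.1 in BM and 118 after 24 h, while the part from Rela and Rel differs less than that from Nfkb1, Nfkb2 and Relb.

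The genes of 2 inhibitors, Tnfaip3 and Nfkbie, had the widest swings between the M-CSF libraries. Nfkbia encodes IkB alpha, the quickly remade inhibitor that takes dimers out of the nucleus (chromosome 12, 55489410 to 55492647). It had 78.6 scaled CPM in BM, 247 in M-BMDM, 233 after 3 h, 65.4 after 24 h, 108 in GM-BMDM and 103 in GM-BMDM after 3 h. Nfkbie, for IkB epsilon, a slower inhibitor (chromosome 17, 45555703 to 45563169), had 26.7 in BM, 96.5 in M-BMDM, 99.4 after 3 h, 20.1 after 24 h, 79.4 in GM-BMDM and 73.3 in GM-BMDM after 3 h. The 24 h library was the lowest of all 6 for both genes. Tnfaip3 encodes A20, a ubiquitin-editing enzyme that shuts off signalling upstream of the kinase complex (chromosome 10, 19000910 to 19015657). It had 29.5 in BM, 155 in M-BMDM, 145 after 3 h, 24.8 after 24 h, 57.4 in GM-BMDM and 59.3 in GM-BMDM after 3 h, so that M-BMDM stood apart from every other condition but its 3 h library.

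The nuclear IkB proteins work with p50 or p52 dimers at promoters instead of holding them in the cytoplasm. Nfkbiz, for IkB zeta, is needed for a set of secondary inflammatory genes (chromosome 16, 55811375 to 55838899). It had 25.2 scaled CPM in BM, 50.4 in M-BMDM, 43.5 after 3 h, 25.9 after 24 h, 12.9 in GM-BMDM and 13.6 in GM-BMDM after 3 h. It was the member for which both GM-CSF libraries were the lowest of the 6. Bcl3, a p50- and p52-binding regulator (chromosome 7, 19808462 to 19822770), had 13.9 in BM, 33.2 in M-BMDM, 31.9 after 3 h, 17.7 after 24 h, 30.6 in GM-BMDM and 30.2 in GM-BMDM after 3 h. The antisense gene Gm16175 overlaps 161 of its 2475 exonic bases.

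Growth of marrow with M-CSF was compared first. Of the 10 genes, 7 were called higher in M-BMDM than in BM and 0 lower, where 20.1% of the 11245 genes that reached 5 scaled CPM were higher and 23.0% lower. Nfkb2 was 6.34-fold higher (log2 2.66, interval 2.56 to 2.77), Relb 5.74-fold (2.52, 2.34 to 2.70) and Tnfaip3 5.25-fold (2.39, 2.27 to 2.51). These are the non-canonical pair and A20. Nfkbie (1.85), Nfkbia (1.65), Nfkb1 (1.38) and Bcl3 (1.26) followed. Nfkbiz, at 1.00, lay just under the limit, and Rel (0.70, 0.58 to 0.82) and Rela (0.42, 0.32 to 0.52) were above 1 by less than 2-fold. The median over the 10 genes was 1.52 on the log2 scale, against -0.07 over all genes analysed. Total counts in place of TMM left the same number of members called and moved the median log2 ratio of the genes with counts in both libraries from 0.00 to -0.17, and medians under other scalings are given over such genes from here on. In bulk RNA, fewer cells of a type and less RNA per cell cannot be told apart. The part that the neutrophil and erythroid cells of marrow play in these ratios was not tested.

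In GM-BMDM, 4 of the 10 genes were called higher than in BM and 0 lower, where 19.8% of genes were higher and 22.3% lower. Relb was 4.55-fold higher (log2 2.19, interval 2.01 to 2.37), Nfkb2 3.20-fold (1.68, 1.57 to 1.79), Nfkbie 2.97-fold (1.57, 1.44 to 1.70) and Bcl3 2.20-fold (1.14, 0.95 to 1.33). Nfkb1 (0.10), Rela (0.16), Nfkbia (0.45), Rel (0.48) and Tnfaip3 (0.96) were above BM by less than 2-fold, and Nfkbiz (-0.97, -1.18 to -0.76) was below it. With total counts, 3 genes were higher and 1, Nfkbiz, was lower, and the small ratios of Nfkb1 (-0.22) and Rela (-0.17) changed sign. Total counts shift the median log2 ratio from -0.07 to -0.40 and the share of calls that are higher from 47.0% to 32.9%. Both cultures were compared with the same BM library.

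**Figure D3:**
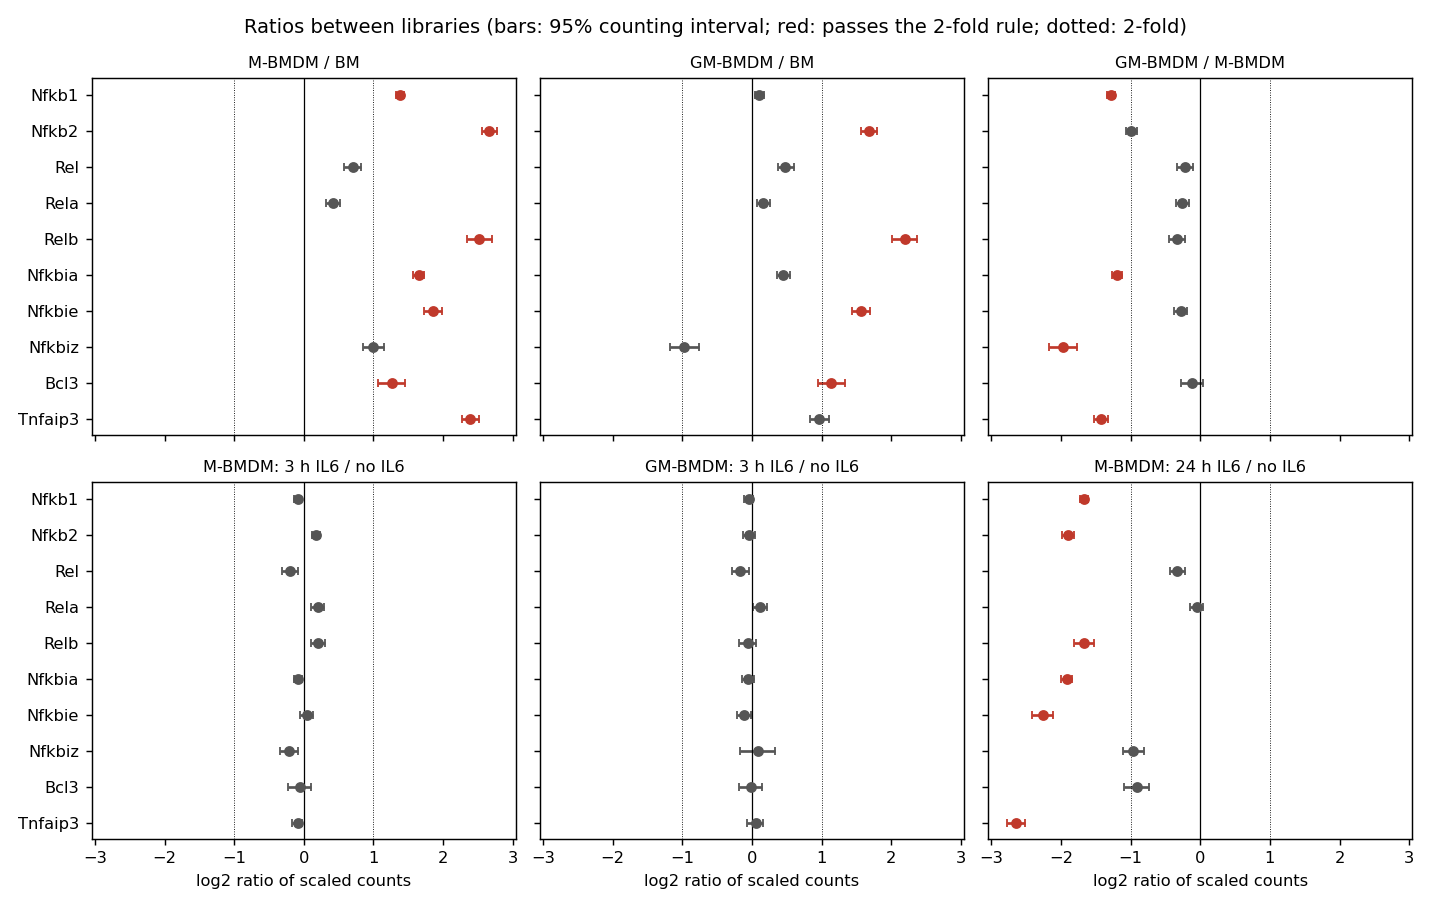
Log2 ratios of scaled counts for the 10 genes in 6 pairs of libraries, with 95% counting intervals; red points pass the 2-fold rule and dotted lines mark 2-fold. The 3 h panels stay between -0.21 and 0.20, while after 24 h every gene but Rel and Rela lies at -0.91 or below.

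Between the growth factors, Nfkbiz, Tnfaip3, Nfkb1 and Nfkbia differed most. Set against M-BMDM, 4 of the 10 genes were called lower in GM-BMDM and 0 higher, where 8.64% of 10495 genes were lower and 10.8% higher. Nfkbiz was 3.91-fold lower (log2 -1.97, interval -2.17 to -1.77), Tnfaip3 2.69-fold (-1.43, -1.53 to -1.33), Nfkb1 2.43-fold (-1.28, -1.34 to -1.22) and Nfkbia 2.30-fold (-1.20, -1.27 to -1.13). Nfkb2 (-0.99) was just under the limit. Relb (-0.33), Nfkbie (-0.28), Rela (-0.26), Rel (-0.22) and Bcl3 (-0.12, -0.28 to 0.04) differed less. Between the 3 h libraries, 5 genes were lower in GM-BMDM and 0 higher, with Nfkb2 (-1.21) added, where 8.06% of genes were lower. With total counts the share of calls that are higher in GM-BMDM without IL6 goes from 55.6% to 43.2%, and the median log2 ratio moves from 0.00 to -0.16.

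The edgeR quasi-likelihood test put both pairs, with no IL6 and after 3 h, into 1 fit. Its only spread, with 1 residual degree of freedom, is how far both macrophage types differ in their 3 h response. The fit pooled this spread over genes, with 502.3 prior degrees of freedom, so a gene's own spread counted little. The p-values of the test therefore measure that small pooled spread, which may be technical. Of the 14719 genes, 56.3% passed at an adjusted p of 0.05 (28.9% rose and 27.4% fell in GM-BMDM). Of the members 8 fell and 0 rose. By edgeR, Nfkbiz fell by 1.82 on the log2 scale (standard error 0.110, adjusted p = 3.4e-48), Tnfaip3 by 1.36 (0.0899, 1.3e-41) and Nfkb1 by 1.26 (0.0832, 1.4e-41). Nfkbia (-1.19), Nfkb2 (-1.10), Relb (-0.46), Nfkbie (-0.36) and Rela (-0.31) fell as well, each in both pairs. Rel (-0.20, adjusted p = 0.0566 by edgeR) and Bcl3 (-0.10, 0.437) did not pass. With a fixed coefficient of variation of 0.2, 5 members fell; Relb, Nfkbie and Rela no longer passed, and the DESeq2 test lost Nfkbie and Rela.

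Dendritic cell markers moved with this comparison. Their sum was 39.0 scaled CPM without GM-CSF and 1159 with it, 12 of 14 tested rose and 0 fell by edgeR, and Itgax, the integrin CD11c, alone had 26.2 and 994. Clec9a, a marker of cross-presenting dendritic cells, went from 0.107 to 15.7 and Zbtb46, a dendritic cell factor, from 0.322 to 3.36, while Flt3 had 0.322 and Siglech 0 in GM-BMDM. Mature neutrophil markers summed to 65.1 and 537, and 8 of 13 rose and 1 fell. Mmp8 alone went from 9.61 to 513 and Mmp9 from 53.0 to 3.36. Of 15 core macrophage markers 5 rose and 9 fell, with a median log2 difference of -1.31, and the M-CSF receptor Csf1r differed by -1.65. The part of these markers in the results of the 10 genes was not tested.

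After 3 h of IL6 the family had changed little. Of the 10 genes, 0 were called higher or lower in M-BMDM, where 0.0906% of genes were higher and 0.272% lower, and 0 in GM-BMDM, where 0.0585% and 0.107% were. In M-BMDM the ratios ran from -0.21 for Nfkbiz (interval -0.34 to -0.08) to 0.20 for Rela (0.11 to 0.29) and Relb (0.10 to 0.30) on the log2 scale. In GM-BMDM they ran from -0.17 for Rel (-0.29 to -0.05) to 0.11 for Rela (0.01 to 0.21). Ratios this small can still exceed counting error, as for Rela and Relb in M-BMDM. All of them lay between the 5th and 95th percentiles of the genes that reached 5 scaled CPM. These were -0.34 and 0.30 in M-BMDM and -0.30 and 0.26 in GM-BMDM. The edgeR test of 3 h over both macrophage types called 0 of the 10 genes, where 0.177% of all genes rose and 0.788% fell. The count at an unadjusted p under 0.05 was 1 by edgeR, where 8.25% of all genes were under it. This was Rel, with a log2 difference of -0.19 and an edgeR adjusted p = 0.592 (unadjusted p = 0.0446). DESeq2 and limma-voom called 0 members and had 0 at an unadjusted p under 0.05. Of 7 genes listed as a check of the IL6 response, 0 passed. This list, like the others, was chosen with earlier results of these data known. Socs3, a STAT3 target and feedback inhibitor, went from 102 to 99.3 scaled CPM in the M-CSF culture and from 142 to 141 in the GM-CSF culture. It had 7.60 in the 24 h library.

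After 24 h of IL6 in M-BMDM, the genes of the inhibitors and of the p50, p52 and RelB subunits were lower than without IL6, and Rela was not. Of the 10 genes, 6 were called lower than in M-BMDM without IL6 and 0 higher, where 8.93% of 10313 genes were lower and 11.5% higher. Tnfaip3 was 6.24-fold lower (log2 -2.64, interval -2.77 to -2.51), Nfkbie 4.79-fold (-2.26, -2.41 to -2.12), Nfkbia 3.78-fold (-1.92, -2.00 to -1.84) and Nfkb2 3.73-fold (-1.90, -1.98 to -1.81). Tnfaip3, Nfkbie and Nfkbia encode inhibitors of the pathway, and Nfkb2 encodes the precursor of p52. Nfkb1 (-1.67, -1.73 to -1.61) and Relb (-1.67, -1.81 to -1.52) were lower by about the same factor as each other. Nfkbiz (-0.96) and Bcl3 (-0.91) stayed under the 2-fold limit, Rel was lower by less (-0.33, -0.44 to -0.22), and the interval of Rela included no difference (-0.05, -0.15 to 0.04). The median over the 10 genes was -1.67, against 0.00 over all genes. With total counts the median log2 ratio moved from 0.00 to 0.13, 6 members were still lower, and the ratio of Rela was 0.08.

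Among all 10313 genes, only 1.38% had a lower 24 h ratio than Tnfaip3 and 2.01% a lower one than Nfkbie, while 44.6% had a lower one than Rela. Against the 3 h library the same 6 genes were lower and 0 higher, with Tnfaip3 at -2.55 and Nfkbie at -2.30, where 8.59% of genes were lower and 11.7% higher. Rela was also lower against the 3 h library, by less than 2-fold (-0.26, interval -0.34 to -0.17). With total counts the share of calls that are higher in this pair goes from 57.7% to 69.6%, the median log2 ratio moves from 0.00 to 0.19, and 6 members are still lower. No M-BMDM library kept 24 h longer without IL6 was analysed here, so IL6 and time in culture cannot be told apart, and the contrast rests on 1 library. Core macrophage markers summed to 38940 scaled CPM without IL6 and 31140 after 24 h, of which Lyz2 made up 26030 and 20120. Markers of other lineages stayed low after 24 h: mature neutrophil markers summed to 17.2, T and NK cell markers to 1.62 and dendritic cell markers to 21.1, of which Itgax made up 14.7. B lineage markers summed to 61.2 without IL6 and 81.9 after 24 h, of which Blnk made up 60.5 and 81.0. Mcm7, a replication gene chosen after its values were seen, had 10.7 without IL6 and 204 after 24 h, and the part of this shift in the 24 h ratios was not tested.

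The 24 h library was also set beside BM, a pair added after the values were seen. None of the 10 genes was called higher or lower, where 17.2% of 11177 genes were higher and 17.7% lower. Relb (0.85) and Nfkb2 (0.77) had the largest log2 ratios, and Nfkbie (-0.41) and Nfkb1 (-0.29) the smallest. For Nfkbiz the interval included no difference (0.04, -0.13 to 0.20). Mki67 and Mcm7, chosen after their values were seen, had 1368 and 321 scaled CPM in BM and 860 and 204 in the 24 h library. Their part in these ratios was not tested.

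Other genes of the pathway were described by 4 lists. The lists were chosen with earlier results of these data known, so they give no independent check on the members. Of 40 inducible NF-kappaB target genes, 36 were analysed. After 24 h of IL6, 27 were lower and 0 higher than without it, where 8.93% of 10313 genes were lower and 11.5% higher. Their median log2 ratio was -2.45 over the 31 that reached 5 scaled CPM, against 0.02 over all such genes. Il1b, which encodes the cytokine IL1 beta, had 259.8 scaled CPM without IL6 and 0.913 after 24 h (log2 -8.15, interval -8.83 to -7.55). Il1a, for IL1 alpha, had 33.5 and 0.166 (-7.66, -9.54 to -6.29), and the neutrophil attractant Cxcl3 had 31.8 and 0.208 (-7.26, -8.89 to -6.03). Ccl22, a chemokine, had 9.18 and 0.249 (-5.20, -6.67 to -4.05). Each of these 4 genes reached 5 scaled CPM only without IL6, as did others of the list. A gene that passes in this way can be called lower but not higher. After 3 h, 0 of the 36 were called in either macrophage type.

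Of 22 other inhibitors and modifiers, 9 were lower and 1 higher after 24 h, among them Tnip1, a partner of A20 (-1.83), Tnfaip2 (-1.78), Zc3h12a, the RNase Regnase-1 (-1.77), and Peli1, a ubiquitin ligase (-1.63). Of 32 kinases and adaptors, 7 were lower and 1 higher, with the adaptor Traf1 (-2.80), the paracaspase Malt1 (-2.21), the ubiquitin ligase Birc3 (-1.98) and the kinase Ikbke (-1.73) lower. The median of this list was -0.14, so most of its genes differed little, and of all genes 8.93% were lower and 11.5% higher. Of 19 ligands and receptors, 18 were analysed; 3 were lower and 2 higher, with Nod2, a sensor of bacterial cell walls (-2.50), the TNF receptor Tnfrsf1b (-2.30) and Cd14, which binds endotoxin (-1.51), lower, and Tlr7, a sensor of RNA (1.40), higher.

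**Figure D4:**
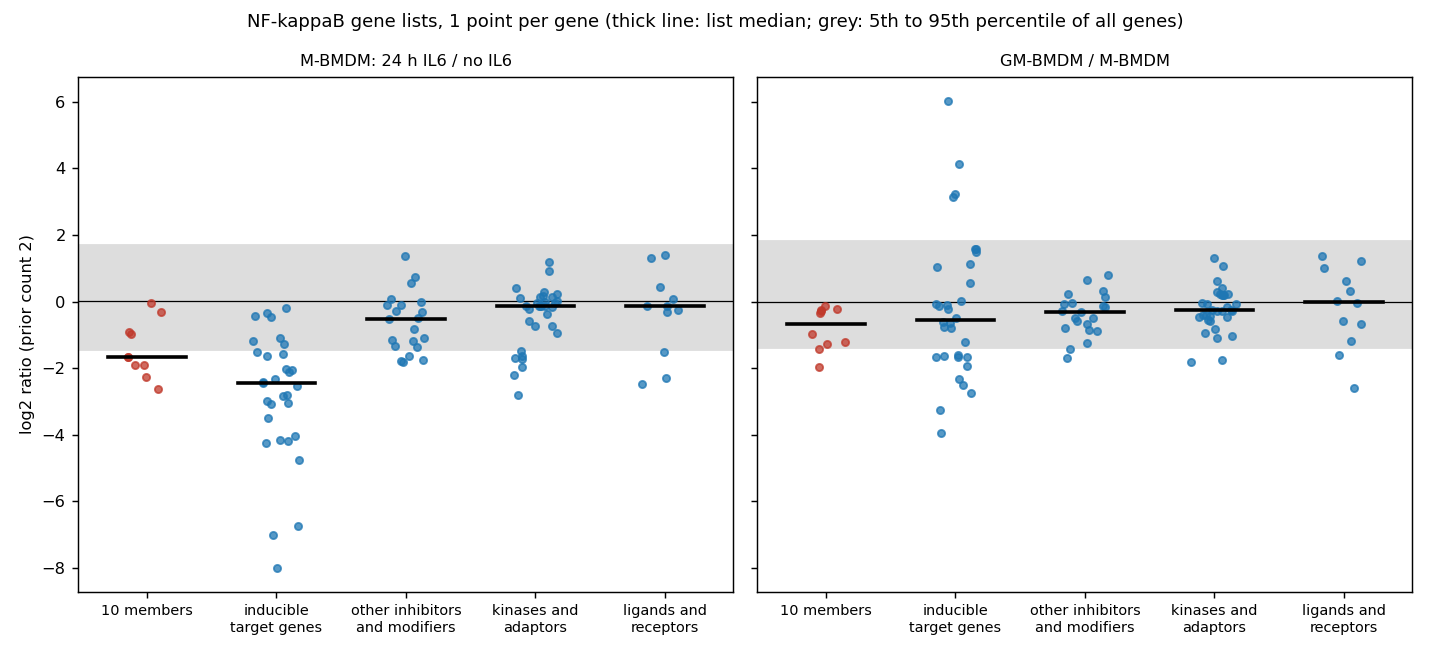
Log2 ratios with a prior count of 2 for the 10 members and the 4 pathway lists, 1 point per gene that reached 5 scaled CPM, for 24 h of IL6 in M-BMDM and for GM-BMDM against M-BMDM; thick lines are list medians and the grey band spans the 5th to the 95th percentile of all genes. After 24 h the target genes have a median of -2.45 and no gene above 0, while in GM-BMDM the same list runs both ways. Some of the target genes reached 5 scaled CPM in M-BMDM without IL6 but not after 24 h.

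Against M-BMDM, the target genes ran both ways in GM-BMDM: 12 were lower and 9 higher, with a median of -0.56. Ccr7, a homing receptor that is also among the dendritic cell markers, went from 0.215 scaled CPM in M-BMDM to 20.2 (log2 6.55). Bcl2a1a, which is not among those markers, went from 6.07 to 108.9 (4.17). Marcksl1, which binds calmodulin and actin, had 672 and 70.5 (-3.25), and Mmp9, a gelatinase, 53.0 and 3.36 (-3.98). By edgeR 11 of the 36 rose and 19 fell, where 28.9% of all genes rose and 27.4% fell. Other inhibitors were lower for 3 of 22 and higher for 0: Tnip3, another A20 partner (-1.68), Peli1 (-1.42) and Nkrf, a repressor (-1.26). Kinases and adaptors were lower for 4 of 32, with Traf1 (-1.82), Ikbke (-1.75) and Irak3, a brake on Toll-like receptors (-1.10), and higher for 2, with the kinase Map3k8 at 1.31. The shares for this list lie near those of all genes, 8.64% lower and 10.8% higher. In M-BMDM against BM, 25 target genes were higher and 4 lower, of which Lcn2 (-10.19) is a neutrophil product. Of all genes in that pair, 20.1% were higher and 23.0% lower. From the other lists, Tnip3 (7.92, 7.19 to 8.76) and Traf1 (4.32) were higher.

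The match with the kappaB consensus motif was counted in the same lists. It stood before a listed start in 10 of 28 target genes with a window (35.7%), 4 of 19 other inhibitors (21.1%), 3 of 25 kinases and adaptors and 2 of 16 ligands and receptors (12.5%), beside 4.46% of all genes. Among the members after 24 h, Nfkb2, Nfkbia, Nfkbie and Tnfaip3 have a match and were called lower, and Rel has a match and differed by -0.33. Bcl3 and Rela have none and differed by -0.91 and -0.05. Nfkb1 and Relb were called lower and have no window.

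Members differed in how near their profiles over the 6 libraries were. Likeness was measured as the Euclidean distance between log2 CPM profiles after each gene's mean was subtracted, a description over 6 libraries. The closest pairs were Nfkb1 with Nfkbia (0.35), Rel with Rela (0.39) and Nfkb2 with Relb (0.66), and the most distant was Relb with Nfkbiz (2.75). The distance is small for any pair of genes that vary little, as Rel and Rela do, and these had ratios of opposite sign at 3 h (-0.20 and 0.20 in M-BMDM, -0.17 and 0.11 in GM-BMDM). For the 4 members that spanned at least 2 log2 units, the 3 nearest other genes were named. Nfkb2 was nearest to P2ry2 (0.21), Eaf1 (0.34) and Lmna (0.41), and Relb to Ccdc86 (0.25), Tnip1 (0.25) and Slc2a6 (0.26). Nfkbie was nearest to St3gal1 (0.32), Zc3h12a (0.40) and Polr3d (0.42). Tnfaip3 ran closest to Ehd1 (0.26), then Agpat4 (0.47) and Slco3a1 (0.50).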

How the data were processed

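Gene-level RNA sequencing counts of 6 libraries were used. The authors deposited expected counts, estimated per gene, with fractional parts in 24.7% to 27.7% of the nonzero values. HISAT2, StringTie and DESeq2 and the build GRCm38 are named per the submitters' processing notes; no source used here gives versions, settings or the use of strand. A further column gave a gene length per the file headers. Counts were rounded, and 742 rows without a gene name (0.240% to 0.522% of counts) were left out. GENCODE M21 gave positions, and RefSeq gave promoters. Genes with a CPM of 1 in at least 1 library received TMM factors (R 4.3.3 with edgeR 4.0.16). Ratio intervals are exact Clopper-Pearson intervals, at 95%, of the conditional binomial. The edgeR quasi-likelihood fit used an additive design (marrow, M-CSF or GM-CSF culture, plus each IL6 time), Benjamini-Hochberg adjustment over all genes, a biological coefficient of variation of 6.45%, and standard errors taken from the F statistic. DESeq2 1.42.0 and limma 3.58.1 were alternatives, as were other scalings, filters and limits. Medians used a prior count of 2. Whether separate animals or cultures gave each library is not stated, so p-values measure only the spread between these samples, which may be technical. The fit was tested on simulated data. The members and lists were chosen with earlier results of these data known. Every member was named; of each list, up to 4 called genes with the largest ratios were eligible, and others are marked as chosen later.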

Additional observations from a re-analysis of the deposited data

Results flagged for a closer look

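After 3 h of IL6, the ratios of 3 genes differed between the 2 macrophage types by more than counting error, with point values on either side of no change. Opposite directions are not shown, since 1 of the 2 ratios included no change for each gene: Nfkb2 (-0.05, -0.13 to 0.04) and Relb (-0.06, -0.18 to 0.06) in GM-BMDM and Nfkbie (0.04, -0.05 to 0.13) in M-BMDM. The log2 difference, GM-BMDM minus M-BMDM, was -0.22 for Nfkb2 (interval -0.33 to -0.12), -0.26 for Relb (-0.41 to -0.10) and -0.16 for Nfkbie (-0.30 to -0.02). These differences were not tested, since each rests on 4 single libraries and the intervals cover counting error only. Nfkbiz lay above BM in M-BMDM and below it in GM-BMDM, with a log2 ratio of -1.97 between the macrophage types. By edgeR this gene fell in GM-BMDM over both pairs (adjusted p = 3.4e-48).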

How the results depend on the processing

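Each group had 1 library, so no library could be left out of a pair, and the test has no residual degree of freedom without any 1 of the M-BMDM and GM-BMDM libraries at 0 h and 3 h. No paired analysis was possible because the labels give no replicate numbers. The direction of each called ratio held under the 3 other scalings; among uncalled ratios, total counts turned Nfkb1 and Rela in GM-BMDM against BM, Rela after 24 h against no IL6 (0.08) and Rel after 24 h against 3 h (0.06), and the ratios nearest to no change, Nfkbie after 3 h in M-BMDM and Nfkbiz after 24 h against BM, have no firm sign under other scalings. With a fold limit of 3, the members called were 2 higher in GM-BMDM against BM, 1 lower in GM-BMDM against M-BMDM and 1 lower between the 3 h libraries. Members lower in GM-BMDM against BM became 1 with total counts and 1 with a fold limit of 1.5; with the latter, 2 were higher in the 24 h library against BM. In the GM-BMDM against M-BMDM test, a fixed coefficient of variation of 0.2 called 4359 genes and 5 members and DESeq2 called 4969 genes, against 8287 and 8. In the IL6 3 h test 142 genes were called, 81 with total counts, 57 with upper-quartile factors, 38 with the fixed coefficient and 3 with DESeq2; members called stayed at 0 in all 9 alternatives. The cause of these changes was not tested. Over its alternatives the adjusted p for GM-BMDM against M-BMDM ran from 0.00271 to 0.682 for Rel and from 5.2e-05 to 0.483 for Rela, and reached at most 3.3e-08 for Nfkbiz.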
